A study of Mus musculus with 6 samples.

Results

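The genes described here are 7 myeloid C-type lectin receptors of the mouse, Clec4a1, Clec4a2, Clec4a3, Clec4d, Clec4e and Clec4n of the Dectin-2 gene cluster, and Clec5a, which lies elsewhere on the same chromosome. They were taken by name, with every probe whose transcript accession belongs to one of those symbols, which gave 9 probes among the 56605 probes of the array and 7 of the 23462 genes with a tested probe. Of the receptors, 6 had 1 probe each, and Clec5a had 3.

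These receptors sit on macrophages, microglia, neutrophils, monocytes and dendritic cells and bind sugars or lipids of fungi, mycobacteria, viruses and damaged cells. Clec4d, Clec4e and Clec4n signal by way of the ITAM-bearing adaptor FcRγ, encoded by Fcer1g, and Clec5a pairs with DAP12, encoded by Tyrobp. The phosphorylated adaptor recruits the kinase Syk, which acts through the CARD9, BCL10 and MALT1 complex on NF-κB and the cytokine genes it controls. Receptors of the Clec4a group differ from these, as Clec4a2 carries an inhibitory ITIM motif that recruits phosphatases.

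The question was whether these receptors differed between microglia with and without an intact copy of Bhlhe41, a basic helix-loop-helix repressor. Microglia came from the brains of C57BL/6 mice that were 3 months old, enriched on Percoll and sorted as viable CD45low CD11b+ Cx3cr1+ cells. B41HET samples, the controls, had the genotype Bhlhe41 dTomato-Cre/+ and B41KO samples had the genotype Bhlhe41 dTomato-Cre/dTomato-Cre, with 3 samples in each. The cassette of dTomato and Cre stands before the start codon of Bhlhe41, so the Bhlhe41 promoter drives both proteins and the allele makes no Bhlhe41. The controls therefore carried 1 disrupted allele and expressed Cre and dTomato as well, and wild type mice were not part of the comparison. Each sample was a pool of several mice by the study's methods, whereas the labels speak of 3 mice per genotype, so the p-values measure the spread between these samples.

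One colour arrays with Cy3-labelled cRNA measured the total RNA. The values below are log2 signals, quantile normalized over the 6 arrays, on which a probe can be compared between samples but not with another probe. A probe is called measured on an array where the scanner flagged it as well above background, which held for 70.1% to 75.5% of probes per array. No spot was saturated. A gene was called where limma gave an adjusted p of 0.05 or less over all 56601 probes tested and its log2 fold change reached 0.5 in size. The 12 microglia markers were all measured in every sample, with a mean log2 signal of 13.08 to 13.18 in B41HET and 12.999 to 13.08 in B41KO. The Bhlhe41 transcript was not lower in B41KO and gave no check of the labelled genotypes, which are used as given, since by the methods the cassette ends translation, which a transcript level does not measure. Its brightest probe read 7.82 ± 0.16 (SD, n = 3) in B41HET and 8.20 ± 0.36 (SD, n = 3) in B41KO (log2 fold change 0.38, adjusted p 0.330), and its other probe read 7.61 ± 0.23 and 7.94 ± 0.03 (0.33, adjusted p 0.203), higher in all 3 B41KO samples. Where these probes lie relative to the inserted cassette was not determined here.

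One of the 7 receptors passed the thresholds. Clec4d, a partner of Mincle that also binds mycobacterial glycolipid, was lower in B41KO than in B41HET microglia, by a fitted 3.48-fold that is not exact, since 2 of its 3 B41KO values were under background. Clec5a, Clec4a1 and Clec4a3, the receptors measured on every array, were not called, with log2 fold changes of 0.14 for Clec4a1, 0.17 for Clec4a3 and -0.16 to 0.23 over the 3 probes of Clec5a. Clec4n was near the detection limit, and Clec4a2 and Clec4e were measured in no sample. Of all genes, 5.45% were called, 1.44% higher and 4.01% lower in B41KO, beside which 1 of 7 is too small a count to set the receptors apart. Of all probes, 5.07% were called. A median over the 7 receptors is not given, because it would rest on probes under background and on the sign of Clec5a, whose probes differed.

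**Figure D1:**
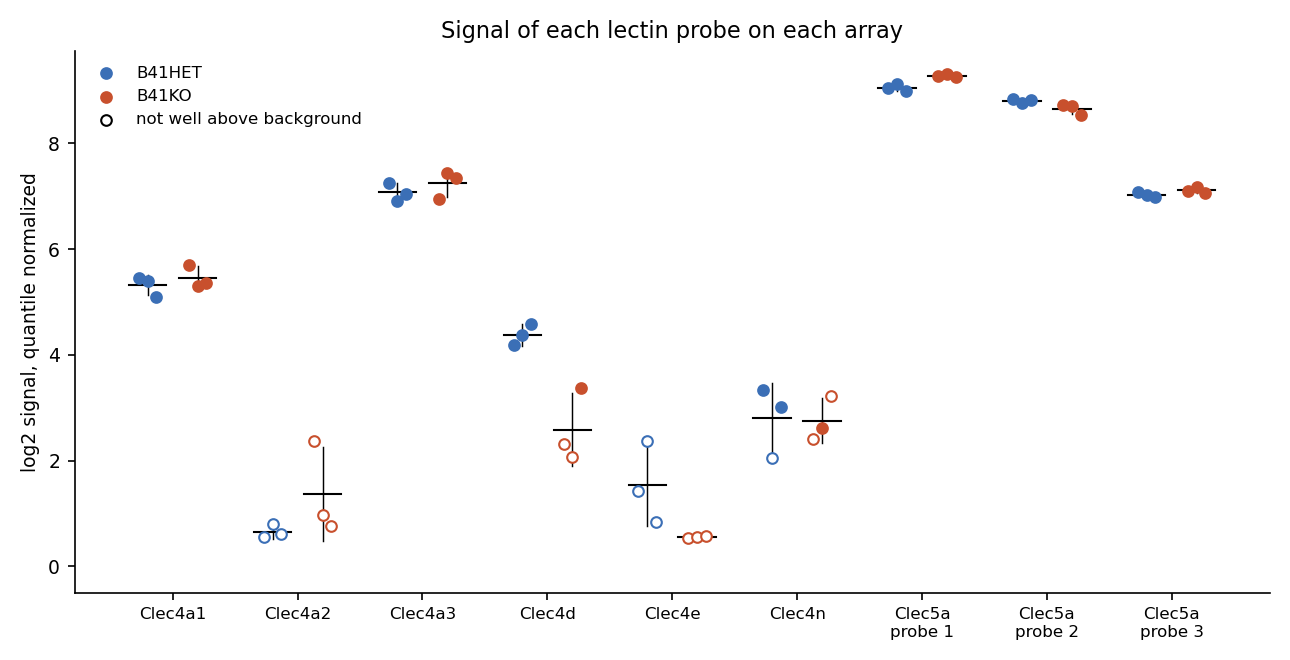
Quantile normalized log2 signal (vertical axis) of the 9 probes of the 7 receptors (horizontal axis) on each of the 3 B41HET and 3 B41KO arrays, with the mean as a line and the SD as a vertical bar, and open points on arrays that did not measure the probe. The 3 B41HET values of Clec4d, 4.18 to 4.58, lie above all 3 B41KO values, and every point of Clec4a2 and Clec4e is open.

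Clec4d, known as MCL or Clecsf8, forms a complex with Mincle and FcRγ and raises the amount of Mincle on the cell surface. Its probe A_51_P383032 read 4.18, 4.38 and 4.58 in the 3 B41HET samples and 2.31, 2.06 and 3.36 in the 3 B41KO samples. The genotypes did not overlap, and the lowest B41HET value stood 0.81 above the highest B41KO value. Groups that did not overlap were found for 4 of the 9 receptor probes, 3 with B41KO below and 1 with B41KO above, and for 29.7% of all probes, 15.2% with B41KO below and 14.5% with B41KO above. The log2 fold change was -1.80 (SE 0.35, 95% confidence interval -2.67 to -0.92), with an adjusted p of 0.0437. An exact permutation test of the 6 values, two-sided, gave p = 0.1, the smallest that 3 samples against 3 can give.

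The signal of Clec4d was low throughout. It was well above background on all 3 B41HET arrays but on 1 of the 3 B41KO arrays, the one with 3.36, so the other two B41KO values lie at or under what the array can measure. Before normalization its processed intensities were 19.0, 23.0 and 23.0 in B41HET and 4.69, 4.64 and 9.71 in B41KO. The lowest normalized log2 signal among measured probes was 2.50 to 3.24 per array, close to the B41KO values. Precision is limited by these dim spots and by 3 samples per genotype.

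**Figure D2:**
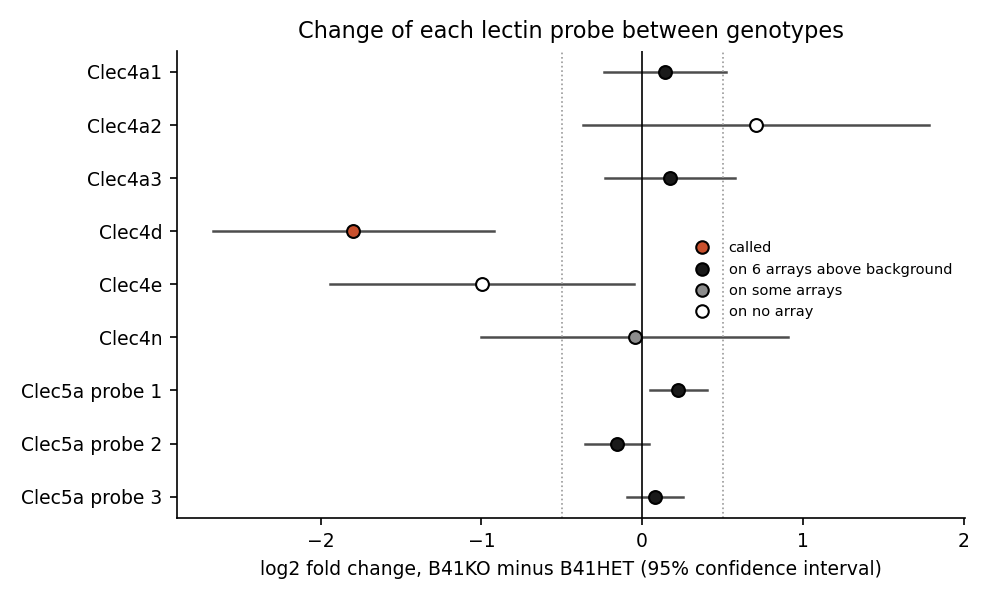
Log2 fold change of each of the 9 probes, B41KO minus B41HET (horizontal axis, bars for the 95% confidence interval), with the dotted lines at the fold threshold of 0.5. Clec4d at -1.80 is the only called probe of the 9, and the interval of the brightest Clec5a probe, 0.05 to 0.40, lies inside the threshold, while the open points of Clec4a2 and Clec4e are fitted values of spots under background.

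The call for Clec4d depended on how the arrays were processed. It stayed below 0 in all 15 alternatives that could move its value or its test, as its groups do not overlap, and kept its call in 5, among them the filter on dim probes, which it passed through the B41HET arrays and which lends no support. With arrays aligned at their 75th percentile the log2 fold change was -1.62 with an adjusted p of 0.0505. With normexp background correction, run on median spot signals in place of the processed intensities, it was -0.30. That value had an adjusted p of 0.0141 and misses the fold threshold. The offset of 50 used with normexp exceeds the intensity of the Clec4d spots. Leaving out 1 sample at a time gave -2.19 to -1.54, and the call held only without B41KO 3, the sample with the highest B41KO value, with an adjusted p of 0.0179. Without any one of the other samples (B41HET 1, B41HET 2, B41HET 3, B41KO 1 or B41KO 2) the adjusted p was 0.108 to 0.133.

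Slide position moved partly with genotype. All arrays were on 1 slide, with the 3 B41HET arrays and B41KO 1 in row 1 and B41KO 2 and B41KO 3 in row 2. Within row 1 the log2 fold change of Clec4d was -2.06 with an adjusted p of 0.0913, with the spread taken from the B41HET arrays, and row 2 held B41KO samples only. With the row as a block it was -2.06 with an adjusted p of 0.175.

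**Figure D3:**
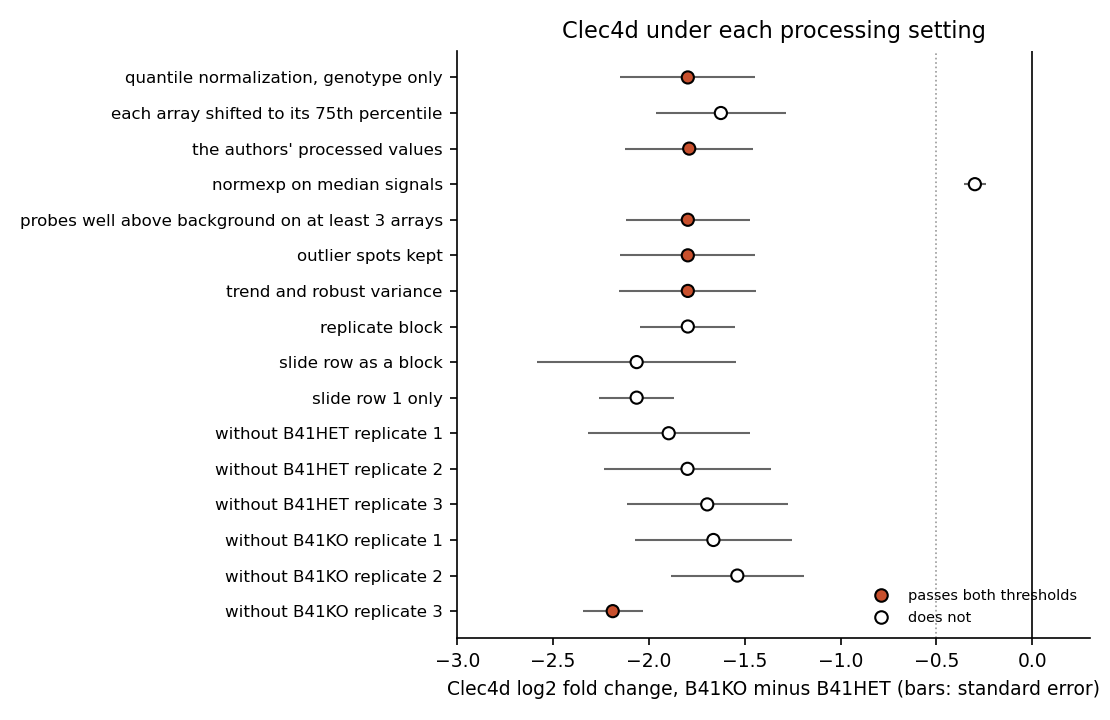
Log2 fold change of Clec4d, B41KO minus B41HET (horizontal axis, bars for the standard error), under the reported setting in the top line and each of the 15 alternatives that could move it or its test below, filled where both thresholds were passed. All points lie left of 0, from -2.19 without B41KO 3 to -0.30 with normexp, and 5 of the 15 alternatives are filled.

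Some of the markers of other myeloid cells were lower in B41KO as well. Of 12 neutrophil markers, 9 were called lower in B41KO, among them Ltf, Ngp and Mmp9, with a median log2 fold change of -2.35 over the list. Their mean log2 signal was 9.94 to 10.05 in B41HET and 8.08 to 8.14 in B41KO, and all 12 were above background on every array in both genotypes. The 3 not called were Mmp8 (-0.61, adjusted p 0.0535), Elane (-0.04, adjusted p 0.917) and Mpo, which was higher in all 3 B41KO samples (0.39, adjusted p 0.157). Of 12 monocyte markers, 5 were called lower (Plac8, Chil3, Ly6c2, F13a1 and Ifitm6) and 7 were not, among them Vcan, which was higher in all 3 B41KO samples (0.20, adjusted p 0.288), and the mean signal was 7.02 to 7.07 in B41HET and 6.05 to 6.13 in B41KO. Of 12 border macrophage markers, 5 were called lower (Cbr2, Ms4a7, Cd163, Pf4 and Apoe) and 7 were not, and the mean signal was 6.98 to 7.07 against 6.18 to 6.29. Of the 12 microglia markers 1 was called lower, Fcrls. The sort took CD45low cells, and neutrophils, monocytes and border macrophages carry more CD45 than microglia. How many of them stayed in the sorted samples was not tested. Neutrophils and monocytes are known to express Clec4d, and the part of these cells in the Clec4d value was not tested. In RNA of a sorted bulk sample, fewer cells of a type and less RNA per cell cannot be told apart.

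**Figure D4:**
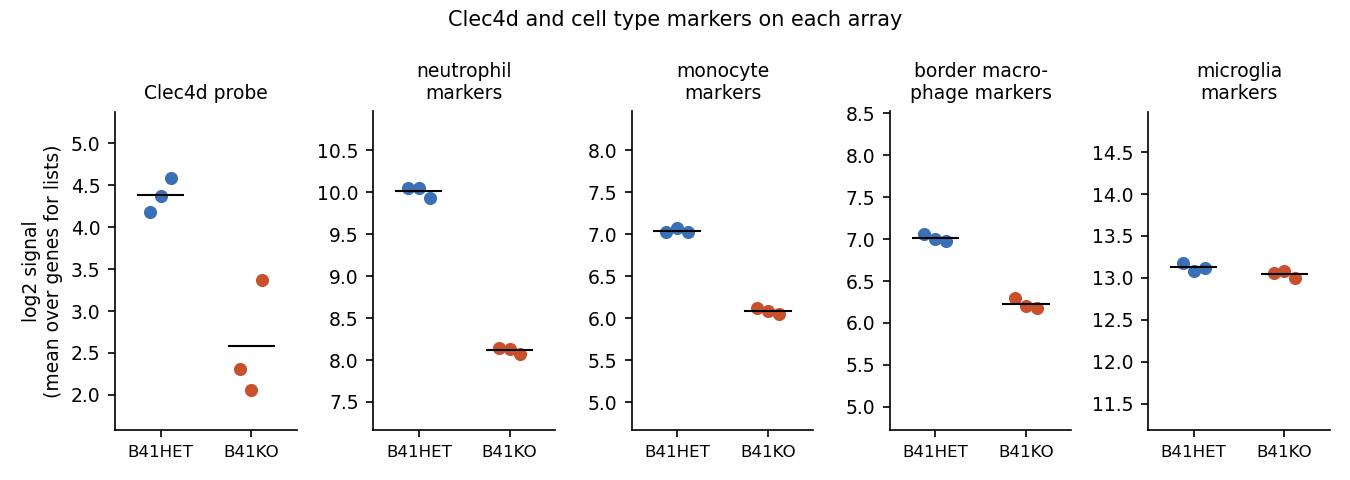
Log2 signal of the Clec4d probe and mean log2 signal over the 12 genes of each of the neutrophil, monocyte, border macrophage and microglia marker lists (vertical axes, each spanning the same number of log2 units) on the 3 B41HET and 3 B41KO arrays, with lines for the genotype means. The neutrophil list is at 9.94 to 10.05 in B41HET and 8.08 to 8.14 in B41KO, and the microglia list at 13.08 to 13.18 and 12.999 to 13.08.

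Clec4e encodes Mincle, the receptor for mycobacterial cord factor and for a nuclear protein set free by dying cells, and neighbours Clec4d on the chromosome. Its probe read 1.43, 2.38 and 0.83 in B41HET and 0.54, 0.55 and 0.57 in B41KO. The B41KO values were all lower, but none of the 6 arrays measured the probe above background, so the values hold no level and no fold can be read from them. The adjusted p was 0.198. Whether Clec4e moved with Clec4d was thus not detectable at this signal.

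Clec4n encodes Dectin-2, the receptor for α-mannans of fungi that gives the cluster its name. It read 3.33, 2.05 and 3.01 in B41HET and 2.41, 2.62 and 3.23 in B41KO, and was measured on 2 B41HET arrays and 1 B41KO array. All B41KO values lay inside the B41HET range, and the log2 fold change was -0.05 (SE 0.39, 95% confidence interval -1.001 to 0.91, adjusted p 0.962). The interval is wide and leaves room for a change of the size of the threshold either way. Leaving out 1 sample at a time gave -0.42 to 0.22, so no direction can be given.

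Among the Clec4a receptors, Clec4a3 and Clec4a1 were measured in every sample. Clec4a3, or DCIR3, which lacks an ITIM, read 7.26, 6.92 and 7.05 in B41HET and 6.95, 7.44 and 7.36 in B41KO. B41KO 1 lay among the B41HET values, and the log2 fold change of 0.17 (SE 0.16, 95% confidence interval -0.23 to 0.58) had an adjusted p of 0.603. Within slide row 1, where B41KO 1 is the only B41KO array, it was -0.13, and a change with the row and a change with the sample kept cannot be told apart. Clec4a1, or DCIR4, likewise without an ITIM, read 5.45, 5.39 and 5.10 in B41HET and 5.71, 5.29 and 5.37 in B41KO. These values overlapped, with a log2 fold change of 0.14 (SE 0.15, 95% confidence interval -0.24 to 0.52, adjusted p 0.649). For both genes the interval reaches past 0.5 on the upper side, so 3 samples per genotype leave a rise of that size within their error.

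Clec4a2, or DCIR1, the ITIM receptor of the group, read 0.56, 0.81 and 0.60 in B41HET and 2.38, 0.97 and 0.76 in B41KO. The highest value came from B41KO 1, and the other B41KO values lay within or just above the B41HET range. No array measured the probe above background, and its adjusted p was 0.405. With the slide row as a block it passed the thresholds, at a log2 fold change of 1.72 with an adjusted p of 0.0358, and that fit compares B41HET with B41KO 1 alone. A call on a probe under background gives no level.

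Clec5a, or MDL-1, a receptor for flaviviruses that activates macrophages through DAP12 and DAP10, had the most precise values of the group. Its brightest probe, A_52_P218058, read 9.05, 9.13 and 8.99 in B41HET and 9.28, 9.31 and 9.25 in B41KO. All 3 B41KO values were higher, by at least 0.12, and the log2 fold change was 0.23 (SE 0.07, 95% confidence interval 0.05 to 0.40) with an adjusted p of 0.133. The interval lies under the threshold of 0.5.

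The other Clec5a probes did not follow it. Probe A_55_P2714991, designed on the same transcript record as the brightest, read 8.84, 8.76 and 8.83 in B41HET and 8.72, 8.70 and 8.54 in B41KO. Here all 3 B41KO values were lower, and the log2 fold change was -0.16 (SE 0.08, adjusted p 0.318). Probe A_51_P398376, designed on another transcript record of the gene, read 7.08, 7.03 and 6.99 in B41HET and 7.10, 7.17 and 7.06 in B41KO, which overlapped (0.08, SE 0.07, adjusted p 0.568).

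The difference between the brightest and the next probe within an array was 0.21, 0.37 and 0.16 in B41HET and 0.56, 0.61 and 0.71 in B41KO. This difference, looked at after the probes were seen to move in opposite directions, was 0.38 larger in B41KO and restates their fold changes, so no test is given. No Clec5a probe was called, and a direction for the gene cannot be given from them.

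The genes whose brightest probe followed the brightest Clec5a probe most closely over the 6 arrays were Slc7a8, an amino acid transporter (Pearson r 0.998), H2-M3, a nonclassical class I molecule (0.995), Olfr487, an olfactory receptor (0.995), and Akap11, a kinase anchoring protein (0.994). These are the 4 highest of 17206 genes measured on all arrays, 10 of which had an r over 0.99, and the 6 points of each correlation are shared arrays with 3 samples per genotype. Their log2 fold changes were 0.27, 0.46, 0.75 and 0.41, positive as the choice by likeness to this probe makes them, so they are given without a test.

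The 6 cluster receptors lie in a run of 11 annotated genes on chromosome 6 of GRCm38.p6, in the order Clec4a1, Clec4a3, Clec4a4, Clec4b1, Clec4a2, Clec4b2, the pseudogenes Gm22946 and Gm5883, Clec4n, Clec4d and Clec4e. Clec5a is separated from them by 1705 annotated genes. None of the remaining lectin genes in the run was called. Clec4b1, or DCAR, an FcRγ-coupled receptor for mycobacterial lipid, read 9.14, 9.27 and 9.39 in B41HET and 9.24, 9.20 and 9.38 in B41KO, a log2 fold change of 0.01 (SE 0.10, adjusted p 0.978). Clec4b2 read 3.61, 3.53 and 3.74 against 3.48, 3.98 and 4.39 (0.33, adjusted p 0.482), and Clec4a4 was measured on 1 of the 6 arrays. Clec4d, between Clec4n and Clec4e, was the only lectin gene of the run that was called. Clec4e and Clec4a2 were measured on no array, and no value is given for the pseudogenes.

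Bhlhe41 binds E-boxes, with a known preference for CACGTG, so the letters around the start sites were read. RefSeq promoter windows (250 bases before to 50 after the start, GRCm38.p6) were found for 6 of the 7 receptors, with 7 windows in all, and Clec4n had no entry. Each window was searched on both strands for CACGTG, for CACGTN, which includes the former, and for the general E-box CANNTG, which can overlap both. The word CACGTG was in none of the 7 windows and in 7.15% of the 32851 windows of the table. CACGTN was in the Clec4e window only, against 19.6% of all windows. CANNTG was in 6 of the 7 windows, all but that of Clec4e, against 72.3% of all windows. The windows of Clec4a3 overlap and share the same match, CACATG, so that site is counted more than once.

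The stretches of 250 bases before the start are shown for Clec4d, the called receptor, and for Clec5a, the one with the smallest standard error, each 5′ to 3′ on the strand of the gene, with matches to CANNTG in capitals. Clec4d is on the plus strand (chr6:123261857-123262106) and Clec5a on the minus strand (chr6:40585806-40586055).
Clec4d: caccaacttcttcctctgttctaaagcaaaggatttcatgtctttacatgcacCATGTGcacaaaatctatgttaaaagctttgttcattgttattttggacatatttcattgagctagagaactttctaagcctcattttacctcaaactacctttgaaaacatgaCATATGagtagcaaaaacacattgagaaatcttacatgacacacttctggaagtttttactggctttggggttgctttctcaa
Clec5a: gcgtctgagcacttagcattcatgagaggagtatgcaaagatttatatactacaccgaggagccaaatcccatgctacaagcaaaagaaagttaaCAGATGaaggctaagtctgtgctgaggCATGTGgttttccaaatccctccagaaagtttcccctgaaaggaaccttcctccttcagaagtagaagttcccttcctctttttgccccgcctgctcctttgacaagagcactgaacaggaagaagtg

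In Clec4d the matches are CATGTG, beginning 197 bases before the start, and CATATG, 83 bases before it. In Clec5a they are CAGATG at 155 and CATGTG at 128 bases before the start, so CATGTG was found in both. CACATG, the same word read on the other strand, was in the windows of Clec4a2 and Clec4a3, so it is not particular to these receptors. Such a match describes the letters only and is no evidence of binding.

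The genes these receptors need in order to signal were measured in the same fit. None of the 3 ITAM adaptors was called, and the genotypes overlapped for Fcer1g and Tyrobp but not for Hcst, whose B41KO values lay above those of B41HET. Fcer1g, the partner of Clec4d, Clec4e and Clec4n, read 13.48, 13.71 and 13.54 in B41HET and 13.76, 13.69 and 13.71 in B41KO (log2 fold change 0.15, SE 0.09, adjusted p 0.390). Tyrobp, the partner of Clec5a, had a log2 fold change of 0.04 (SE 0.08, adjusted p 0.800), and Hcst, which encodes DAP10, had 0.08 (SE 0.07, adjusted p 0.553). Adaptor transcripts thus gave no call beside the lower Clec4d.

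Downstream of the adaptors, 3 of 11 genes of the proximal kinases and the Vav and phospholipase C group were called lower in B41KO and none higher. They were the Src family kinases Src (-0.69, adjusted p 0.0207), Fyn (-0.56, adjusted p 0.0296) and Fgr (-0.52, adjusted p 0.0462). Syk itself read 10.19, 10.15 and 10.20 in B41HET and 10.001, 9.96 and 9.96 in B41KO, without overlap, but its log2 fold change of -0.20 (SE 0.06, adjusted p 0.132) was not called. None of the 4 genes of the CARD9 complex was called, with Card9 at -0.02 (SE 0.10, adjusted p 0.920). None of the 5 inhibitory phosphatases and ligases was called, among them Ptpn6, which encodes the phosphatase SHP-1 that ITIM receptors recruit (-0.13, adjusted p 0.289). Cbl, a ubiquitin ligase, fell short of the fold threshold alone, at -0.49 with an adjusted p of 0.0233 and no overlap.

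Of 15 cytokine and other output genes of CARD9 and NF-κB, 3 were called lower and none higher. Tnf, the inflammatory cytokine, read 13.05, 13.13 and 13.18 in B41HET and 12.44, 12.39 and 12.34 in B41KO (-0.73, SE 0.07, adjusted p 0.00831). Ccl4, a chemokine, had a log2 fold change of -0.66 (SE 0.08, adjusted p 0.0128). Cxcl2, a neutrophil chemoattractant, was measured on every B41HET array and on no B41KO array. The adjusted p of its call, 0.0106, belongs to the fitted change, which uses B41KO values under background. The B41HET mean was 1.68-fold above the mean, over the 3 B41KO arrays, of the lowest signal among measured probes on each. That ratio was not tested and is no strict bound, since spots not well above background can read higher than that signal. The remaining 12 genes were not called, and Nlrp3, a sensor of the inflammasome, fell short of the fold threshold at -0.48 with an adjusted p of 0.0356. Ptgs2 had the detection pattern of Cxcl2 but missed the p threshold, with an adjusted p of 0.0563 on B41KO values under background. Of the 15 genes, 3 had positive log2 fold changes.

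Over the 38 pathway genes together, 6 were called lower and none higher, beside 4.01% of all genes called lower, and the median log2 fold change was -0.03 against 0.01 for all genes. The called genes are widely used in innate signalling and are not particular to these receptors. The fall of the neutrophil, monocyte and border macrophage markers stands beside these values too, and its part in them was not tested.

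**Figure D5:**
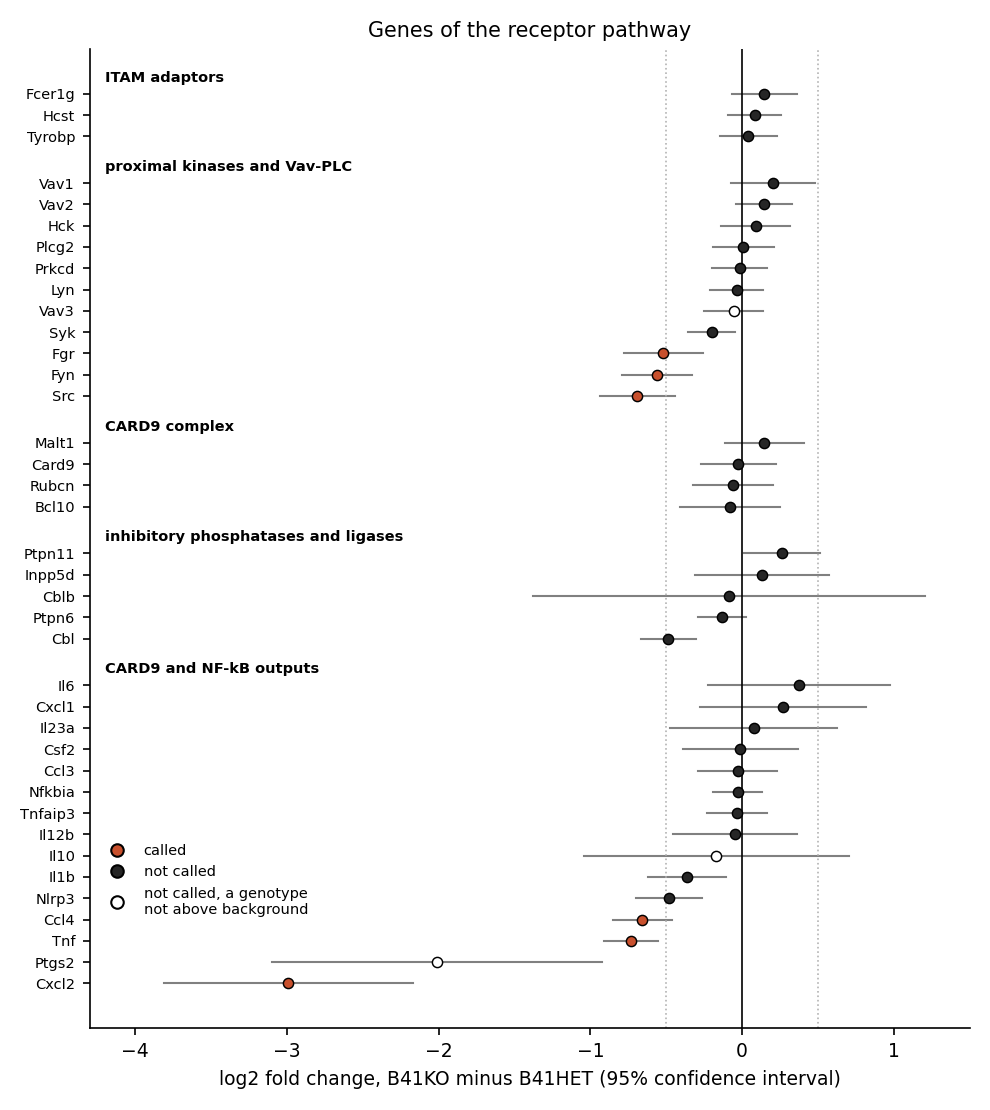
Log2 fold change, B41KO minus B41HET (horizontal axis, bars for the 95% confidence interval), of the 38 genes of the receptor pathway in 5 groups, with the called genes coloured, open points for uncalled genes not above background on any array of a genotype, and dotted lines at the fold threshold of 0.5. The 6 called genes lie left of 0. The point of Cxcl2 is a fitted value against B41KO spots under background.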

How the data were processed

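RNA of 3 B41HET and 3 B41KO samples of sorted microglia was measured on Agilent SurePrint G3 mouse arrays. The authors deposited scanner intensity values, made with Feature Extraction 11.5.1.1, background-subtracted and detrended, with no normalization between arrays. The authors also deposited a table of log2 values. Its column medians were 5.1059 to 5.1063, and its columns rank the probes almost exactly as the arrays do. It was therefore read as quantile normalized, which the study's methods name, and used as an alternative.

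Of 62976 spots per array, the 59305 that are no controls were used, without the 95 to 136 that carried an outlier flag on that array. Log2 intensities were quantile normalized and averaged per probe. They were tested with limma 3.58.1 in R 4.3.3, with genotype as the only term and Benjamini-Hochberg adjustment over 56601 probes with at least 2 values per genotype. Plots used matplotlib 3.10.9 (Python 3.11.15). The test was checked on simulated data.

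Accessions were matched to RefSeq genes on GRCm38.p6, which named 33767 probes (59.7%). The brightest probe stood for a gene. Every receptor is given with every probe. Genes of a list are named if called, at most 4 by size, or if the receptors need them to signal. The monocyte and border macrophage lists are named in full where called, a choice made after their values were seen. So was naming the 3 neutrophil genes with the largest changes, Clec4b1, Clec4b2, Clec4a4, Nlrp3, Ptgs2, Cbl, Mmp8, Elane, Mpo, Vcan, Clec7a, Clec12a and Mgl2. Of genes like Clec5a, the 5 highest correlations were taken, and 1 of them is not reported here. Members and lists were chosen with earlier results of these data known. A comparison of the receptor proteins was not run here.

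Alternatives covered the normalization, the background correction, the source of the values, dim and outlier spots, the variance model, the probe that stands for a gene, the fold threshold, the replicate number and the slide row as blocks, and leaving out each sample. Array precision is limited by the number of arrays.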

Additional observations from a re-analysis of the deposited data

How the results depend on the processing

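The reported setting called 1 of the 7 receptors, Clec4d. None was called with arrays aligned at their 75th percentile (Clec4d -1.62), with normexp (-0.30), with the replicate block (-1.80, adjusted p 0.0890) or within slide row 1 (-2.06), so the count was 0 there. With the slide row as a block, 1 was called, Clec4a2 (1.72), and Clec4d was not. Leaving out 1 sample at a time gave 0 or 1. The call for Clec4d held with the authors' values, outlier spots kept, another variance model and without B41KO 3. It also held under the filter on dim probes, which it passed through B41HET, and the rules on which probe stands for a gene cannot move its single probe, so these lend no support. Of all probes, 2867 were called, against 1500 with normexp, 42 with the replicate block, 444 with the slide row as a block, 0 within row 1 (9304 at an unadjusted limma p under 0.05) and 792 to 1525 without 1 sample.

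Signs turned for Clec4n, at 0.12 under the 75th percentile shift and between -0.42 and 0.22 without 1 sample, and for Clec4a3, at -0.13 with the slide row as a block and within row 1, both of which rest on B41KO 1 alone. The 75th percentile shift moved the median of all probes from 0.02 to 0.13 and the share of calls that were lower from 66.0% to 54.2%. That share was 95.2% of the 42 calls under the replicate block. The filter on dim probes gave no value for Clec4a2 and Clec4e. The cause of these changes was not tested.

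Deviations of same-numbered samples correlated at 0.13, -0.01 and 0.17 over 38226 probes. Differently numbered samples were not compared, so these values cannot decide whether the numbers pair the samples. Pairing was left out of the reported setting and is covered by the replicate block. Clec4a2, Clec4e, Clec4n and the B41KO values of Clec4d are limited by signal over background.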

Other observations

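C-type lectins outside the cluster were measured on the same arrays. Of 8 lectins of the Dectin-1 cluster none was called. Clec7a, which encodes the β-glucan receptor Dectin-1, read 7.82, 7.75 and 7.66 in B41HET and 7.57, 7.45 and 7.63 in B41KO (log2 fold change -0.19, SE 0.08, adjusted p 0.254), without overlap. Clec12a, an inhibitory receptor for uric acid crystals that also stands in the border macrophage list, read 7.04, 7.08 and 6.98 in B41HET and 6.68, 6.78 and 6.83 in B41KO (-0.27, SE 0.08, adjusted p 0.102), again without overlap.

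Of 12 other myeloid C-type lectins, 2 were called lower in B41KO and none higher. Clec10a, a galactose-type lectin, read 6.49, 6.33 and 6.35 in B41HET and 4.45, 4.29 and 4.66 in B41KO (-1.92, SE 0.12, adjusted p 0.00226). Cd209a, a lectin of dendritic cells, read 7.17, 6.89 and 7.10 in B41HET and 5.10, 5.83 and 5.01 in B41KO (-1.74, SE 0.24, adjusted p 0.0179). Both also stand in the list of 12 dendritic cell markers, of which they are the 2 called genes. Mgl2, a close relative of Clec10a, was higher in all 3 B41KO samples by less than the fold threshold (0.40, SE 0.07, adjusted p 0.0302).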
